A study of Mus musculus with 17 samples.

Results

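The genes described here encode machinery that docks, primes and fuses secretory granules with the plasma membrane: SNARE proteins and their partners, the Rab3 and Rab27 GTPases with their effectors, and scaffolds of the active zone. Members were taken by gene symbol from a list of 44 genes, out of 55357 genes in the deposited files, and the estimated counts of their transcripts were summed in each of 17 samples. After a filter on low counts, 43 of the 44 were among the 22784 genes tested. The remaining one, *Cplx1*, had at most 9 counts in any sample, and its mean TPM (transcript counts per effective length, scaled to the same total in every sample) was 0.0105, 0.0167, 0.00258 and 0.000748 in control cells at 2.8 and 16.7 mM and in knockout cells at 2.8 and 16.7 mM.

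The study sequenced polyadenylated RNA of mouse β cells to compare cells with and without the RNA-binding protein PCBP2 after islet culture at a low or a high glucose concentration. Islets of male mice on a C57BL/6 background were kept for 3 days at 2.8 or 16.7 mM glucose, and the sorted cells were positive for the tdTomato reporter. Control cells, called WT in the labels, came from mice with RIP-Cre and the Rosa26 tdTomato allele, and gave 3 samples at 2.8 mM and 4 at 16.7 mM. Knockout cells came from RIPCre+;Pcbp2Fl/Fl;Tdtomato mice, and gave 5 samples at each concentration. In both genotypes Cre was driven by the rat insulin promoter, so that the reporter marks cells in which that promoter has been active, and the age of the mice is in neither the labels nor the methods. Control samples held 70712840 to 78719001 estimated counts (median 78152840) at 2.8 mM and 65070242 to 69201359 (median 68307923) at 16.7 mM. Knockout samples held 47385513 to 82419400 (median 73279801) at 2.8 mM and 73336033 to 81769111 (median 77964405) at 16.7 mM.

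Among the samples at 16.7 mM, 3 stood apart on the first principal component of all genes: replicate 4 of control cells (9.88) and replicates 4 and 5 of knockout cells (21.4 and 33.2), against 90.9 to 99.1 in the other samples at that concentration. On the second component, replicate 5 of knockout cells was the lowest at both concentrations. It was at -92.1 at 2.8 mM, against -34.8 to 20.9 in the rest of its group, and at -81.0 at 16.7 mM, against -43.2 to -26.7. The transcripts of *Ins2* took 9.04, 8.91 and 8.90% of all counts in control cells at 2.8 mM and 25.7, 21.4, 19.1 and 18.2% at 16.7 mM. In knockout cells, the *Ins2* share was 6.80, 5.54, 5.39, 4.92 and 10.4% at 2.8 mM and 23.4, 20.7, 24.5, 22.5 and 24.8% at 16.7 mM. It was higher in every sample at 16.7 mM than in any at 2.8 mM, so the level of another gene depends on whether counts are scaled to the total or by TMM (trimmed mean of M values), which assumes that most genes do not change. CPM, counts relative to library size, were scaled by TMM and compare a gene between samples, whereas TPM as deposited are scaled to the total.

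Insulin granules fuse when VAMP proteins on the granule form a complex with syntaxin and SNAP25 on the plasma membrane, which Sec1/Munc18 proteins assist and NSF with its SNAP adaptors takes apart. Rab3 and Rab27 in their GTP-bound state recruit effectors that tether granules, and Munc13 and CAPS proteins prime them, with the RIM, RIM-binding, ELKS, piccolo and bassoon scaffolds holding these at release sites. In β cells this machinery couples the rise in calcium that follows glucose uptake to insulin release, and much of it is shared with synapses.

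*Pcbp2* was examined first as a check of the genotype labels. *Pcbp2* was at 63.4, 73.4 and 50.7 CPM in control cells at 2.8 mM and at 35.0, 45.4, 44.4 and 36.7 CPM at 16.7 mM. In knockout cells, *Pcbp2* was at 19.2, 17.5, 16.8, 15.5 and 18.2 CPM at 2.8 mM and at 10.02, 5.81, 6.39, 8.48 and 7.60 CPM at 16.7 mM. Every knockout sample was below every control sample, and within each genotype the values at 16.7 mM lay below those at 2.8 mM without overlap. In the quasi-likelihood test of edgeR, whose p-values were adjusted over all genes tested by the method of Benjamini and Hochberg, the log2 fold change ± SE in knockout cells was -1.84 ± 0.17 (adjusted p 3.61e-06) at 2.8 mM and -2.40 ± 0.16 (adjusted p 7.55e-08) at 16.7 mM. For 16.7 against 2.8 mM it was -0.63 ± 0.18 (adjusted p 0.0208) in control cells and -1.19 ± 0.15 (adjusted p 2.26e-05) in knockout cells, and the interaction was -0.56 ± 0.23 (adjusted p 1). The adjusted p-values measure only the spread between these samples, and in bulk RNA fewer cells that express a gene cannot be told apart from less of its RNA per cell.

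Calls required that the adjusted p be under 0.05 and that the fold exceed 1.5. Glucose was compared first within control cells, where 13 of the 43 members were called (30.2%), 10 higher and 3 lower at 16.7 mM, against 13.8% of all genes tested (3153 of 22784). The balance of directions depended on the processing: with total-count scaling 11 members were called (25.6% against 21.2% of all genes), 3 higher and 8 lower, and limma on log2(TPM + 1) called 17 (39.5% against 30.6%), 1 higher and 16 lower. Of the 13 called with TMM, 6 were still called with total-count scaling and 0 had an estimate of the other sign, so that the balance there came from calls lost and gained. By limma 4 of the 13 were still called, and 4 others had an estimate of the other sign. The median log2 fold change over the members was 0.25 against 0.04 over all genes with TMM, -0.14 against -0.35 with total-count scaling and -0.34 against -0.24 by limma. Replicate numbers appeared to pair the control samples, and with the replicate number as a block 18 members were called (41.9% against 22.1% of all genes, 5024 of 22784), 14 higher and 4 lower. The block added *Stx3* (-0.82), *Snap25* (0.65), *Vamp2* (0.66), *Cadps* (0.67) and *Synpr* (0.78) to the 13, with log2 fold changes in parentheses. Only the groups compared gave 8 members called (18.6% against 12.7% of all genes, 2522 of 19826). Leaving out 1 sample gave 5 members called (11.6%) without replicate 1 or 2 of control cells at 2.8 mM, where all genes called fell to 1990 (8.33%) and 1382 (5.78%). Without replicate 1 of control cells at 16.7 mM, 7 were called (16.3%), against 2413 of all genes (10.6%). Without replicate 4 there, 16 were called (37.2%, against 4480 of all genes or 19.8%), with *Cadps* (0.69), *Stx3* (-0.76) and *Vamp2* (0.67) added to the 13. Without replicate 3 at 2.8 mM *Vamp2* (0.64) was called among 10 (23.3%, against 2818 of all genes or 11.8%).

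In knockout cells, the comparison of 16.7 with 2.8 mM called 17 of the 43 members, 12 higher and 5 lower, 39.5% of the list against 23.8% of all genes tested (5431 of 22784). With total-count scaling 13 were called, 5 higher and 8 lower, and that share of 30.2% was below the 34.5% of all genes called with the same scaling. By limma on log2(TPM + 1), 19 were called, 1 higher and 18 lower, 44.2% of the list against 38.8% of all genes. The replicate block called 19 as well (44.2% against 25.4% of all genes, 5783 of 22784). Between the concentrations in knockout cells, residuals too correlated more for the same replicate number (lowest 0.0664) than for different numbers (highest 0.0445). Of the 17 called with TMM, 10 were still called with total-count scaling and 0 had the other sign, and by limma 5 were still called and 6 had the other sign. The members' median was 0.35 against 0.01 over all genes with TMM, -0.13 against -0.47 with total-count scaling and -0.48 against -0.33 by limma. Without the 3 samples that stood apart, 16 members were called in control cells (12 higher and 4 lower) and 19 in knockout cells (14 higher and 5 lower), and 13 and 15 of these were among the members called with all samples. These were 37.2% and 44.2% of the list, against 21.9% (4898) and 28.6% (6390) of the 22352 genes tested in that fit. Leaving out 1 sample added calls in knockout cells, with log2 fold changes in parentheses: *Cadps* without replicate 1 or 3 at 2.8 mM (0.65 and 0.64) or replicate 2 or 4 at 16.7 mM (0.63 and 0.61), *Stx4a* without replicate 1 at 2.8 mM (-0.74) or replicate 4 or 5 at 16.7 mM (-0.73 and -0.74), and *Synpr* without replicate 5 at 16.7 mM (1.05).

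Knockout and control cells were compared at each concentration. At 2.8 mM, 3 members were called, all lower in knockout cells, against 2.04% of all genes tested (464 of 22784, 406 lower and 58 higher). They were *Rab3c*, *Rph3a* and *Synpr*, 6.98% of the list, and 11 members had an unadjusted p under 0.05. The share of all genes at that unadjusted cutoff is not given, here or below. Counts at that cutoff therefore do not compare the members with other genes. The estimates of 32 members lay below 0 and those of 11 above it, with a median of -0.20 against 0.03 over all genes with TMM. With total-count scaling, 27 lay below 0 and 16 above it (median -0.09 against 0.15 over all genes), and by limma on log2(TPM + 1) 22 and 21 (median -0.0045 against 0.05). At 16.7 mM, 2 members were lower (4.65%), *Rph3a* and *Synpr*, against 1.71% of all genes tested (389 of 22784, 323 lower and 66 higher). Of the members, 8 had an unadjusted p under 0.05. With the replicate block 4 members were called at 2.8 mM (9.30% against 3.18% of all genes, 725) and 2 at 16.7 mM (4.65% against 3.72%, 848). DESeq2 called 5 members at 16.7 mM (11.6% against 3.17% of all genes, 721), with *Rab3c* and *Bsn* lower and *Erc2* higher beside those 2, and limma on log2(TPM + 1) called 1 (2.33% against 0.834%, 190). Without replicate 3 of control cells at 2.8 mM, 1 member was called at 2.8 mM (2.33% against 1.02% of all genes, 242), and without replicate 4 of control cells at 16.7 mM, 4 were called at 16.7 mM (9.30% against 2.87% of all genes, 652), with *Bsn* (-1.04) and *Erc2* (0.67) added. Without replicate 1 of knockout cells at 16.7 mM, *Erc2* (0.66) was added as well, and without replicate 5 of knockout cells at 16.7 mM the 2 called were *Rph3a* and *Bsn* (-1.04), with log2 fold changes in parentheses. The 3 and 2 members called without these knockout samples were 6.98% and 4.65% of the list, against 1.27% and 1.74% of all genes. The count at 16.7 mM fell to 1 (2.33%) without replicate 2 or 3 of control cells (against 1.29% and 0.941% of all genes, 292 and 213) or without replicate 3 or 4 of knockout cells (against 1.26% and 1.60%, 284 and 363). For the interaction of genotype and glucose, 1 of 22784 genes was called (0.00439%) and 0 members, with 3 members (*Rab27a*, *Rph3a* and *Sytl4*) at an unadjusted p under 0.05 by edgeR. DESeq2 and limma on log2(TPM + 1) also called 0, with 3 at an unadjusted p under 0.05 by each. The comparisons share groups of samples, so their values are given side by side: 19 members were called in none of the 5, 13 in 1 and 11 in 2.

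**Figure D1:**
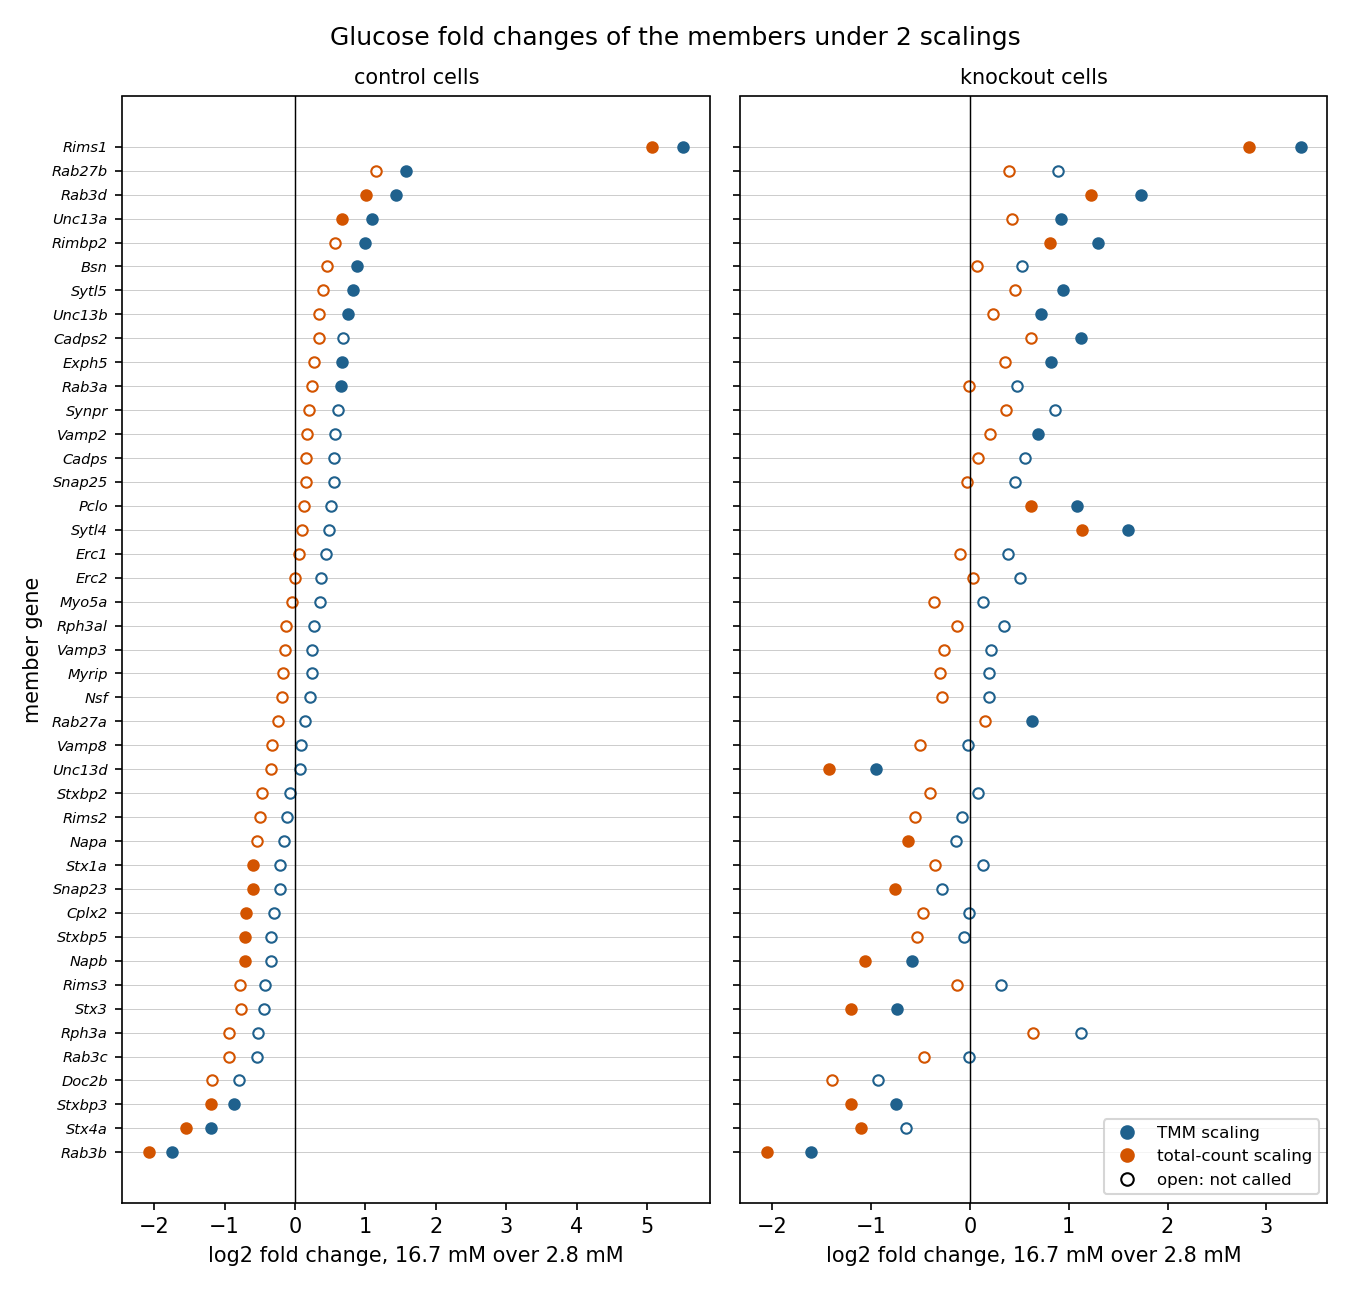
Log2 fold change of each tested member between 16.7 and 2.8 mM glucose in control cells (left) and knockout cells (right), with TMM scaling in blue and total-count scaling in orange. Filled points are called, and total-count scaling places the members lower, with 8 lower and 3 higher called in control cells against 3 lower and 10 higher with TMM.

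Of the plasma-membrane SNAREs, *Snap25* had the highest mean TPM. In the order control at 2.8 mM, control at 16.7 mM, knockout at 2.8 mM and knockout at 16.7 mM, used from here on, mean TPM were 113, 93.0, 105 and 71.0 for *Snap25*, the main Q-SNARE partner of syntaxin in neurons and β cells. They were 36.7 ± 3.02, 20.3 ± 5.72, 40.4 ± 3.49 and 17.3 ± 0.774 (SD) for its homolog *Snap23*. Mean TPM of the syntaxins were 20.8, 9.55, 29.6 and 8.82 for *Stx3*, 16.4, 4.69, 14.0 and 4.85 for *Stx4a*, and 3.88 ± 0.231, 2.02 ± 0.496, 3.08 ± 0.458 and 1.61 ± 0.236 (SD) for *Stx1a*. Most members had lower TPM at 16.7 mM, where insulin transcripts take more of the total.

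CPM of *Snap25* were 169, 209 and 174 in control cells at 2.8 mM and 232, 327, 313 and 205 at 16.7 mM. In knockout cells, *Snap25* was at 187, 202, 156, 160.1 and 97.0 CPM at 2.8 mM and at 247, 284, 228, 202 and 141 CPM at 16.7 mM. The concentrations overlapped in both genotypes, and *Snap25* was called in no comparison of the 4-group fit. *Stx4a*, a syntaxin of the plasma membrane, was at 17.1, 30.6 and 12.1 CPM in control cells at 2.8 mM and at 9.41, 6.25, 7.73 and 11.3 CPM at 16.7 mM. In knockout cells, *Stx4a* was at 10.9, 14.5, 15.4, 17.5 and 16.5 CPM at 2.8 mM and at 7.27, 6.41, 10.2, 11.8 and 12.1 CPM at 16.7 mM. In control cells each value at 16.7 mM was below each at 2.8 mM, and in knockout cells the groups overlapped. By edgeR, *Stx4a* was called in control cells, at -1.20 ± 0.29 (adjusted p 0.0105) on the log2 scale (± SE), and not in knockout cells, at -0.64 ± 0.24 (adjusted p 0.0553), with an interaction of 0.55 ± 0.38 (adjusted p 1). Replicate 2 at 2.8 mM held the highest value, and without it the adjusted p in control cells was 0.12.

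*Stx3*, a syntaxin also found on granules, was at 54.0, 52.1 and 68.3 CPM in control cells at 2.8 mM and at 26.8, 26.9, 48.2 and 69.8 CPM at 16.7 mM. In knockout cells, *Stx3* was at 58.5, 67.0, 75.3, 102 and 70.4 CPM at 2.8 mM and at 40.9, 48.6, 31.1, 62.1 and 41.5 CPM at 16.7 mM. The groups overlapped in both genotypes, and replicate 4 was the highest in each of the 3 groups that have one. *Stx3* was called in knockout cells, at -0.73 ± 0.24 (adjusted p 0.0291) by edgeR, and was at -0.44 ± 0.29 (adjusted p 0.346) in control cells, with an interaction of -0.30 ± 0.38 (adjusted p 1). With the replicate block, control cells gave -0.82 (adjusted p 0.0037). The call of *Stx3* in knockout cells was lost without replicate 4 of knockout cells at 2.8 mM (0.0869) or replicate 1, 3 or 5 of knockout cells at 16.7 mM (0.0648, 0.0808 and 0.0539), with the adjusted p in parentheses. *Stx1a* and *Snap23* were not called in any comparison, and *Stx1a* in knockout cells at 2.8 mM (5.19, 4.67, 5.52, 5.34 and 5.90 CPM) lay below all control values (8.56, 8.15 and 7.16 CPM), at -0.58 ± 0.16 (adjusted p 0.0731).

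The granule SNAREs are VAMP proteins, of which *Vamp8* had the highest mean TPM, at 159.6, 94.8, 148 and 70.8. Mean TPM were 59.3, 51.3, 56.5 and 42.6 for *Vamp2*, which pairs with syntaxin and SNAP25 in insulin release, and 40.2 ± 0.868, 28.1 ± 5.34, 44.05 ± 7.38 and 25.0 ± 2.85 (SD) for *Vamp3*. CPM of *Vamp8* were 97.0, 122 and 90.8 in control cells at 2.8 mM and 129.7, 120.4, 104 and 83.3 at 16.7 mM. In knockout cells, *Vamp8* was at 85.8, 101, 77.2, 84.4 and 86.8 CPM at 2.8 mM and at 102, 92.4, 87.0, 73.6 and 75.3 CPM at 16.7 mM. The groups overlapped in all 4 comparisons of pairs of groups, and neither *Vamp8* nor *Vamp3* was called. *Vamp2* was at 113, 107 and 124 CPM in control cells at 2.8 mM and at 171, 175, 196 and 141 CPM at 16.7 mM. In knockout cells, *Vamp2* was at 105, 83.3, 104, 95.5 and 75.4 CPM at 2.8 mM and at 160.0, 163, 162, 136 and 127 CPM at 16.7 mM. Every value at 16.7 mM exceeded every value at 2.8 mM within a genotype. By edgeR, *Vamp2* was called in knockout cells, at 0.69 ± 0.12 (adjusted p 0.000382), and not in control cells, at 0.58 ± 0.15 (adjusted p 0.0141), where its fold of 1.49 was under the threshold. In control cells, the replicate block gave 0.66 and a call. The estimate in knockout cells was 0.20 with total-count scaling (not called) and -0.39 by limma on log2(TPM + 1) (not called). The interaction was 0.12 ± 0.19 (adjusted p 1).

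The Sec1/Munc18 proteins hold syntaxin and the SNARE bundle, and the tomosyn gene *Stxbp5* encodes a protein that competes with VAMP. *Stxbp2* had the highest mean TPM of these, at 82.4, 42.0, 86.0 and 41.2, with 48.3, 16.8, 45.4 and 13.5 for *Stxbp3* and 2.80 ± 0.695, 1.17 ± 0.330, 2.56 ± 0.396 and 1.13 ± 0.147 (SD) for *Stxbp5*. CPM of *Stxbp2* were 129.5, 113 and 107 in control cells at 2.8 mM and 134, 106, 101 and 101 at 16.7 mM. In knockout cells, *Stxbp2* was at 108, 91.0, 105, 104 and 79.9 CPM at 2.8 mM and at 108, 101, 106, 104 and 94.95 CPM at 16.7 mM. Its groups overlapped throughout, and replicate 1 of control cells at 16.7 mM was high in its group. *Stxbp3*, the Munc18 form that pairs with syntaxin 4, was at 102, 131 and 109.7 CPM in control cells at 2.8 mM and at 38.7, 47.6, 60.3 and 103 CPM at 16.7 mM. In knockout cells, *Stxbp3* was at 101, 125, 80.2, 98.9 and 76.5 CPM at 2.8 mM and at 51.8, 43.6, 44.3, 76.1 and 70.8 CPM at 16.7 mM. In control cells, replicate 4 at 16.7 mM fell within the range at 2.8 mM and the other 3 fell below it, and in knockout cells the concentrations did not overlap. By edgeR, *Stxbp3* changed by -0.87 ± 0.28 (adjusted p 0.0389) in control cells and by -0.75 ± 0.23 (adjusted p 0.0201) in knockout cells. The call in control cells was lost without replicate 1, 2 or 3 of control cells at 2.8 mM (0.0693, 0.152 and 0.0713) or replicate 1, 2 or 3 of control cells at 16.7 mM (0.106, 0.113 and 0.0854), and in a fit of only the groups compared (0.0795), with the adjusted p in parentheses. For knockout cells, *Stxbp3* was no longer called without replicate 2 of knockout cells at 2.8 mM (0.0579) or replicate 2 or 3 of knockout cells at 16.7 mM (0.0575 and 0.0576). *Stxbp2* and *Stxbp5* were called in no comparison.

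NSF and the SNAP adaptors take spent SNARE complexes apart. *Napa* had the highest mean TPM of all members, at 201, 109, 213 and 97.7, followed here by *Nsf* at 34.3 ± 5.55, 23.4 ± 3.52, 35.1 ± 4.65 and 19.3 ± 1.65 (SD) and *Napb* at 6.83, 3.25, 5.87 and 1.98. CPM of *Napa* were 526, 509.7 and 430.5 in control cells at 2.8 mM and 510.1, 384, 399.9 and 459 at 16.7 mM. In knockout cells, *Napa* was at 438, 456, 411, 445 and 558 CPM at 2.8 mM and at 442, 372, 413, 450.3 and 408 CPM at 16.7 mM. *Napa* overlapped between all pairs of groups and was not called, nor was *Nsf*. *Napb*, the β-SNAP gene, was at 29.3, 33.7 and 28.7 CPM in control cells at 2.8 mM and at 20.02, 24.4, 24.8 and 27.6 CPM at 16.7 mM. In knockout cells, *Napb* was at 17.9, 29.8, 19.8, 19.0 and 32.5 CPM at 2.8 mM and at 15.2, 15.8, 16.7, 20.7 and 10.6 CPM at 16.7 mM. All control values at 16.7 mM were below those at 2.8 mM, and in knockout cells the concentrations overlapped. By edgeR, *Napb* was called in knockout cells at -0.59 ± 0.19 (adjusted p 0.0233), and was at -0.34 ± 0.22 (adjusted p 0.345) in control cells, with an interaction of -0.25 ± 0.29 (adjusted p 1). That call was lost with the replicate block (0.0525), with an offset for effective length (log2 fold change -0.55), and without replicate 2 or 5 of knockout cells at 2.8 mM (0.0671 and 0.0727) or replicate 1 or 5 of knockout cells at 16.7 mM (0.0509 and 0.0564). With counts of protein-coding transcripts alone the direction reversed, to 1.10 (adjusted p 0.0401).

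At the level of transcripts, Napb-202, annotated as a target of nonsense-mediated decay, was at 4.63, 6.14 and 5.17 TPM in control cells at 2.8 mM and at 0.715, 0.931, 0.828 and 2.89 TPM at 16.7 mM. In knockout cells, Napb-202 was at 3.34, 6.0, 3.90, 4.12 and 5.85 TPM at 2.8 mM and at 0.997, 1.29, 0.749, 1.68 and 0.948 TPM at 16.7 mM. The protein-coding Napb-201 was at 1.13, 0.557 and 0.885 TPM and 1.05, 1.72, 2.04 and 1.16 TPM in control cells, and at 0.307, 0.810, 0.664, 0.286 and 0.337 TPM and 0.339, 0.365, 0.868, 0.761 and 0.182 TPM in knockout cells, in the same order. Napb-202 was lower at 16.7 mM without overlap in both genotypes, and the values of Napb-201 overlapped. The share of *Napb* TPM from Napb-202 was 77.6 ± 6.75, 38.2 ± 16.7, 78.6 ± 5.78 and 57.7 ± 11.3% (SD), and that from Napb-201 was 12.7 ± 4.92, 48.6 ± 16.4, 8.09 ± 3.19 and 24.5 ± 12.3%. By the edgeR test over transcripts, Napb-202 changed by -1.32 ± 0.35 (adjusted p 0.0432) in control cells and by -1.05 ± 0.30 (adjusted p 0.0254) in knockout cells, and both were called. The call in control cells was lost in 6 of the 7 fits without 1 sample (adjusted p 0.0758 to 0.182) and kept without replicate 4 at 16.7 mM. In knockout cells it was lost without replicate 2 or 5 at 2.8 mM or replicate 1, 3 or 5 at 16.7 mM (adjusted p 0.0511 to 0.0694). Napb-201 had positive estimates, 1.59 ± 0.51 (adjusted p 0.0867) and 1.11 ± 0.41 (adjusted p 0.0828), and was not called.

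Averaged over all samples, *Rab3b* had the highest TPM of the Rab GTPases, with group means of 139.6, 25.7, 186 and 29.5, followed by *Rab3a* at 84.0, 74.3, 84.3 and 56.9 and *Rab3d* at 38.3, 58.1, 29.3 and 46.1. *Rab3b* ranked first at 2.8 mM only, and at 16.7 mM *Rab3a* and *Rab3d* were above it in both genotypes. *Rab27a*, which β cells use for granule docking, had mean TPM of 27.9, 17.6, 26.1 and 18.3, *Rab3c* of 4.76, 1.30, 1.01 and 0.449 and *Rab27b* of 0.0640, 0.147, 0.166 and 0.175. *Rab3b*, a GTPase of secretory granules, was at 129.5, 195 and 124 CPM in control cells at 2.8 mM and at 36.6, 37.5, 28.7 and 75.6 CPM at 16.7 mM. In knockout cells, *Rab3b* was at 183, 293, 157, 156 and 90.7 CPM at 2.8 mM and at 43.96, 62.5, 34.4, 85.5 and 62.4 CPM at 16.7 mM. At 16.7 mM all values were below those at 2.8 mM in both genotypes. *Rab3d*, also a granule GTPase, was at 158, 114 and 172 CPM in control cells at 2.8 mM and at 516, 390.2, 453 and 243 CPM at 16.7 mM. In knockout cells, *Rab3d* was at 109.7, 101, 103, 122 and 70.6 CPM at 2.8 mM and at 435, 386, 420.0, 256 and 188 CPM at 16.7 mM. *Rab3d* ran the other way with TMM, with every value at 16.7 mM above every value at 2.8 mM, and it was lowest at 16.7 mM in the 3 samples that stood apart. By edgeR, *Rab3b* changed by -1.74 ± 0.37 (adjusted p 0.00473) in control cells and by -1.61 ± 0.31 (adjusted p 0.000803) in knockout cells, and *Rab3d* by 1.44 ± 0.29 (adjusted p 0.0039) and by 1.74 ± 0.24 (adjusted p 4.9e-05). These 4 calls were made without each sample in turn and, except for *Rab3d* in control cells by limma on log2(TPM + 1) (0.60, adjusted p 0.0911), under every other processing tried, total-count scaling included.

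*Rab3a*, the form best known from synapses, was at 107, 109 and 103 CPM in control cells at 2.8 mM and at 205, 168, 187 and 109.9 CPM at 16.7 mM. In knockout cells, *Rab3a* was at 101, 97.5, 96.3, 103 and 83.7 CPM at 2.8 mM and at 148, 135, 147, 111 and 128 CPM at 16.7 mM. Values at 16.7 mM exceeded those at 2.8 mM in both genotypes, in control cells by a narrow margin for replicate 4. By edgeR, *Rab3a* was called in control cells at 0.65 ± 0.17 (adjusted p 0.014), and in knockout cells its fold of 1.39 was under the threshold, at 0.48 ± 0.14 (adjusted p 0.0139), with an interaction of -0.18 ± 0.22 (adjusted p 1). The control estimate was 0.24 with total-count scaling (not called) and -0.18 by limma on log2(TPM + 1) (not called), so its direction was the opposite by limma alone. That call was also lost in a fit of only the groups compared (0.066) and without replicate 1 or 2 of control cells at 2.8 mM (0.0511 and 0.0554) or replicate 1 of control cells at 16.7 mM (log2 fold change 0.54). CPM of *Rab27a* were 87.4, 83.0 and 70.3 in control cells at 2.8 mM and 93.4, 91.8, 91.0 and 78.7 at 16.7 mM. In knockout cells, *Rab27a* was at 76.8, 69.6, 61.0, 62.5 and 48.9 CPM at 2.8 mM and at 92.2, 101, 93.3, 89.3 and 116 CPM at 16.7 mM. In knockout cells the concentrations did not overlap, and in control cells they did. *Rab27a* was called in knockout cells at 0.63 ± 0.12 (adjusted p 0.000839) and was at 0.14 ± 0.15 (adjusted p 0.567) in control cells, and the interaction was 0.48 ± 0.19 (adjusted p 1). In knockout cells its estimate was 0.15 with total-count scaling (not called) and -0.48 by limma on log2(TPM + 1) (not called). It fell under the fold threshold, with log2 fold changes in parentheses, without replicate 5 of knockout cells at 2.8 mM (0.54) or replicate 5 of knockout cells at 16.7 mM (0.56), without the 3 samples that stood apart (0.54), with the insulin genes left out (0.58) and with an offset for effective length (0.53).

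*Rab27b*, the paralog of *Rab27a*, was at 0.295, 0.308 and 0.285 CPM in control cells at 2.8 mM and at 1.03, 1.36, 0.724 and 0.489 CPM at 16.7 mM. In knockout cells, *Rab27b* was at 0.771, 0.723, 0.257, 0.866 and 0.493 CPM at 2.8 mM and at 1.17, 2.25, 1.11, 0.686 and 0.535 CPM at 16.7 mM. It rested on 26, 24 and 26 counts in control cells at 2.8 mM, and there the concentrations did not overlap, whereas they overlapped in knockout cells. By edgeR, *Rab27b* was called in control cells, at 1.58 ± 0.51 (adjusted p 0.0431), and not in knockout cells, at 0.89 ± 0.40 (adjusted p 0.107), with an interaction of -0.69 ± 0.64 (adjusted p 1). Its control estimate was 1.15 with total-count scaling (not called) and 0.11 by limma on log2(TPM + 1) (not called), and the call was also lost with no filter on low counts (0.0643) and without replicate 1, 2 or 3 of control cells at 2.8 mM (0.119, 0.126 and 0.109) or replicate 1, 2 or 3 of control cells at 16.7 mM (0.0835, 0.125 and 0.0597). CPM of *Rab3c*, a Rab3 form enriched in neurons, were 4.85, 11.7 and 7.13 in control cells at 2.8 mM and 3.37, 8.997, 5.67 and 3.63 at 16.7 mM. In knockout cells, *Rab3c* was at 1.90, 3.78, 0.684, 1.52 and 2.10 CPM at 2.8 mM and at 1.85, 2.88, 1.26, 2.07 and 1.89 CPM at 16.7 mM. Knockout values were below all control values at both concentrations. By the same edgeR test, *Rab3c* in knockout cells was at -1.98 ± 0.43 (adjusted p 0.0174) at 2.8 mM, which was called, and at -1.44 ± 0.41 (adjusted p 0.0906) at 16.7 mM, which was not. At 2.8 mM the call was lost without replicate 2 or 3 of control cells at 2.8 mM (0.133 and 0.0555) or replicate 4 of knockout cells at 2.8 mM (0.0521), with the adjusted p in parentheses. DESeq2 called *Rab3c* at 16.7 mM (-1.45, adjusted p 0.013), and the interaction by edgeR was 0.53 ± 0.60 (adjusted p 1).

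**Figure D2:**
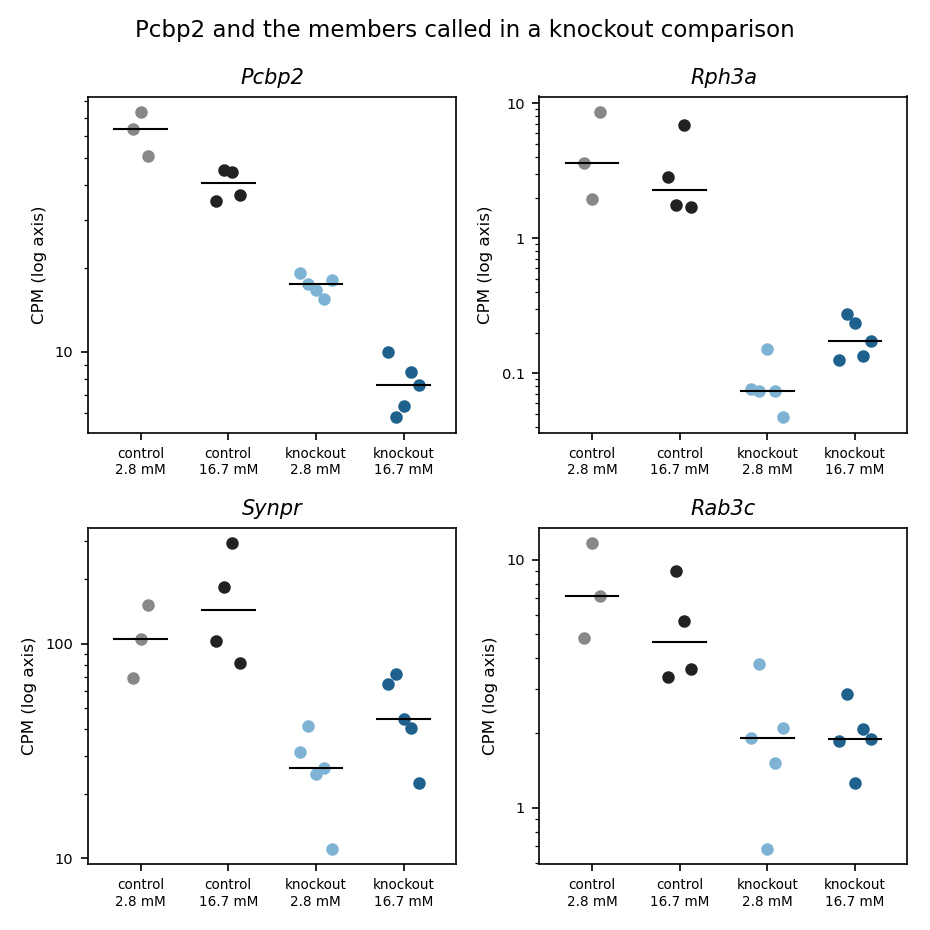
CPM on a log axis of Pcbp2 and of the 3 members called between knockout and control cells, with 1 point per sample and a line at each group's median. Rph3a is at or below 0.274 CPM in all knockout samples and at or above 1.70 CPM in all control samples.

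Effectors bind the GTP-bound Rab and link the granule to the membrane or to myosin. *Sytl4*, which encodes granuphilin, a docking factor of insulin granules, had the highest mean TPM among them, at 78.5, 64.8, 51.8 and 77.8. Mean TPM were 36.9 ± 7.27, 25.3 ± 3.52, 32.0 ± 5.83 and 19.7 ± 2.68 (SD) for *Rph3al*, the Noc2 gene, and 7.16 ± 2.02, 4.61 ± 1.35, 7.53 ± 1.64 and 3.46 ± 0.519 (SD) for the motor gene *Myo5a*. They were 4.61, 4.57, 4.42 and 4.19 for *Sytl5*, 4.35, 4.20, 4.83 and 4.42 for *Exph5*, 0.343 ± 0.103, 0.395 ± 0.146, 0.548 ± 0.287 and 0.272 ± 0.0874 (SD) for *Myrip* and 1.11, 0.450, 0.0281 and 0.0314 for *Rph3a*. *Rph3al*, *Myo5a* and *Myrip* were called in no comparison. *Rph3a*, which encodes rabphilin, an effector of Rab3 and Rab27, was at 3.59, 1.97 and 8.65 CPM in control cells at 2.8 mM and at 2.84, 1.75, 6.93 and 1.70 CPM at 16.7 mM. In knockout cells, *Rph3a* was at 0.0761, 0.0733, 0.151, 0.0736 and 0.0471 CPM at 2.8 mM and at 0.125, 0.274, 0.236, 0.135 and 0.172 CPM at 16.7 mM. The knockout values rested on 7, 6, 14, 4 and 5 counts at 2.8 mM and 7, 17, 15, 10 and 13 counts at 16.7 mM, and every knockout sample lay far below every control sample. By edgeR, *Rph3a* in knockout cells was at -5.79 ± 0.56 (adjusted p 6.58e-06) at 2.8 mM and at -4.15 ± 0.51 (adjusted p 0.00011) at 16.7 mM, the lowest estimates among the members in both comparisons. It was called without each sample in turn in both, and under every processing tried except limma on log2(TPM + 1) at 16.7 mM (-0.46, adjusted p 0.301). There its mean TPM were 0.450 in control cells and 0.0314 in knockout cells. With 1 added to each value, a difference of that size stays under the fold threshold, so that fit could hardly call it. Between the concentrations, *Rph3a* was not called, at -0.52 ± 0.51 (adjusted p 0.549) in control cells and 1.12 ± 0.52 (adjusted p 0.115) in knockout cells, and the interaction was 1.64 ± 0.72 (adjusted p 1) with an unadjusted p of 0.0358.

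Among transcripts of *Rph3a*, the protein-coding Rph3a-201 was at 0.798, 0.271 and 1.82 TPM in control cells at 2.8 mM and at 0.272, 0, 0.938 and 0.244 TPM at 16.7 mM. In knockout cells, Rph3a-201 was at 0, 0.0144, 0, 0 and 0 TPM at 2.8 mM and at 0, 0, 0, 0.0129 and 0 TPM at 16.7 mM. It was therefore listed at 0 in most knockout samples and in 1 control sample. The protein-coding Rph3a-204 was at 0, 0.162 and 0.240 TPM and 0.0293, 0.219, 0 and 0.0368 TPM in control cells, and at 0.0182, 0, 0.0426, 0.0206 and 0.0102 TPM and 0.0137, 0.0354, 0.0277, 0 and 0.0225 TPM in knockout cells, with overlap between the genotypes. Rph3a-201 was the 1 transcript of a member called between knockout and control cells at 2.8 mM (adjusted p 0.0264 by the edgeR test over transcripts). This call was lost with the replicate block, and without replicate 1 or 3 of control cells or any 1 of the 5 knockout samples at 2.8 mM (adjusted p 0.056 to 0.117). Without replicate 2 of knockout cells at 2.8 mM, 1 transcript of a member was called.

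CPM of *Sytl4* were 296, 214 and 315 in control cells at 2.8 mM and 427, 265, 428 and 423 at 16.7 mM. In knockout cells, *Sytl4* was at 192, 178, 159, 161 and 138 CPM at 2.8 mM and at 483, 330.0, 487, 433 and 770.1 CPM at 16.7 mM. In knockout cells every value at 16.7 mM was above every value at 2.8 mM, and in control cells replicate 2 at 16.7 mM overlapped the range at 2.8 mM. By edgeR, *Sytl4* was called in knockout cells, at 1.59 ± 0.20 (adjusted p 2.17e-05), and not in control cells, at 0.49 ± 0.24 (adjusted p 0.182). The interaction was 1.11 ± 0.30 (adjusted p 0.736) with an unadjusted p of 0.00191, so the difference between the genotypes did not pass the threshold. In knockout cells *Sytl4* was called without each sample in turn, and its estimate was 1.13 with total-count scaling (called) and 0.53 by limma on log2(TPM + 1) (not called). At 2.8 mM, knockout values were below all control values, at -0.73 ± 0.22 (adjusted p 0.111), and the replicate block gave -0.62 (adjusted p 0.0218), which was called. Between these 2 groups, the lowest correlation of residuals for the same replicate number was 0.0474, under the limit of 0.1 set for pairing.

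*Sytl5*, a synaptotagmin-like effector of Rab27, was at 9.91, 12.5 and 8.88 CPM in control cells at 2.8 mM and at 23.2, 21.9, 16.1 and 12.5 CPM at 16.7 mM. In knockout cells, *Sytl5* was at 8.87, 12.2, 8.08, 7.32 and 8.76 CPM at 2.8 mM and at 19.5, 19.3, 17.2, 18.7 and 12.4 CPM at 16.7 mM. In control cells the lowest value at 16.7 mM fell just within the range at 2.8 mM, and in knockout cells the concentrations did not overlap. CPM of *Exph5*, which encodes the Rab27 effector Slac2-b, were 21.4, 18.6 and 27.9 in control cells at 2.8 mM and 40.4, 35.0, 33.9 and 35.2 at 16.7 mM. In knockout cells, *Exph5* was at 21.2, 25.7, 24.3, 22.7 and 20.7 CPM at 2.8 mM and at 33.5, 36.8, 41.5, 36.3 and 54.3 CPM at 16.7 mM. *Exph5* did not overlap between concentrations in either genotype. By edgeR, *Sytl5* changed by 0.82 ± 0.23 (adjusted p 0.0234) in control cells and by 0.94 ± 0.19 (adjusted p 0.00113) in knockout cells. The same test gave 0.67 ± 0.17 (adjusted p 0.0126) and 0.82 ± 0.14 (adjusted p 0.000287) for *Exph5*. In control cells, the estimate for *Sytl5* was 0.40 with total-count scaling (not called) and -0.01 by limma on log2(TPM + 1) (not called), and for *Exph5* it was 0.27 with total-count scaling (not called) and -0.02 by limma on log2(TPM + 1) (not called). In knockout cells, *Sytl5* was at 0.46 with total-count scaling (not called) and -0.06 by limma on log2(TPM + 1) (not called), and *Exph5* at 0.35 with total-count scaling (not called) and -0.11 by limma on log2(TPM + 1) (not called), so both directions were the opposite by limma. The control call of *Sytl5* was also lost in a fit of only the groups compared (0.057) and without replicate 1 or 3 of control cells at 2.8 mM (0.0877 and 0.0929) or replicate 1 or 2 of control cells at 16.7 mM (0.0696 and 0.0706). For *Exph5* it was lost without replicate 1 or 2 of control cells at 2.8 mM (0.0594 and 0.0878).

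Active-zone scaffolds place granules and calcium channels at release sites. *Rims3*, a short RIM form, had the highest TPM among them averaged over all samples, with group means of 20.7, 6.87, 21.2 and 7.76, followed by *Rimbp2* at 6.04, 6.74, 7.07 and 7.96 and *Rims2*, the main RIM of β cells, at 5.78 ± 0.712, 3.31 ± 0.711, 5.94 ± 1.02 and 2.45 ± 0.257 (SD). In knockout cells at 16.7 mM *Rimbp2* was above *Rims3*, and in control cells at 16.7 mM they were nearly equal. Mean TPM were 2.74 ± 0.356, 1.96 ± 0.277, 3.05 ± 0.549 and 1.85 ± 0.248 (SD) for *Erc1* and 3.05 ± 0.307, 2.66 ± 0.383, 4.54 ± 1.04 and 3.43 ± 0.376 (SD) for *Erc2*, the ELKS genes. They were 3.32, 2.81, 3.38 and 3.46 for *Pclo* (piccolo), 0.363, 0.379, 0.268 and 0.188 for *Bsn* (bassoon) and 0.0112, 0.673, 0.0557 and 0.430 for *Rims1*. CPM of *Rims3* were 83.3, 79.6 and 137 in control cells at 2.8 mM and 58.6, 40.6, 106 and 93.0 at 16.7 mM. In knockout cells, *Rims3* was at 70.4, 89.9, 79.9, 72.8 and 53.0 CPM at 2.8 mM and at 67.1, 67.4, 60.7, 95.6 and 164 CPM at 16.7 mM. *Rims3* overlapped between all pairs of groups, and neither it nor *Rims2*, *Erc1* or *Erc2* was called. *Erc2* came near the threshold in knockout cells at 16.7 mM, where its values (10.9, 12.8, 14.1, 12.6 and 15.3 CPM) were above all control values (8.43, 8.62, 7.49 and 10.1 CPM). By edgeR, this difference was 0.60 ± 0.15 (adjusted p 0.0504), and DESeq2 called it (0.59, adjusted p 0.00314).

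*Rims1*, a RIM scaffold that binds Rab3 and Munc13, was at 0.0347, 0.142 and 0.0659 CPM in control cells at 2.8 mM and at 4.00, 4.71, 5.92 and 0.265 CPM at 16.7 mM. In knockout cells, *Rims1* was at 0.268, 0.623, 0.0852, 0.123 and 0.0503 CPM at 2.8 mM and at 3.34, 5.25, 2.72, 0.403 and 0.0771 CPM at 16.7 mM. At 2.8 mM these values rested on 3, 11 and 6 counts in control cells and 24, 53, 8, 7 and 5 counts in knockout cells. *Rims1* was near 0 at 2.8 mM and, at 16.7 mM, high in the 6 samples that lay together on the first principal component and low in the 3 that stood apart. In control cells the concentrations did not overlap, and in knockout cells they did. By edgeR, *Rims1* changed by 5.52 ± 1.35 (adjusted p 0.0104) in control cells and by 3.35 ± 0.94 (adjusted p 0.0113) in knockout cells, with an interaction of -2.17 ± 1.49 (adjusted p 1). Without the 3 samples that stood apart, the estimates were 5.89 (adjusted p 9.21e-05) and 3.99 (adjusted p 7.48e-05). The control call was lost without replicate 1 of control cells at 2.8 mM (0.0545), and limma on log2(TPM + 1) did not call *Rims1* in knockout cells (0.40, adjusted p 0.0581).

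*Rimbp2*, which links RIM to calcium channels, was at 15.6, 11.1 and 16.4 CPM in control cells at 2.8 mM and at 39.7, 29.1, 27.3 and 18.7 CPM at 16.7 mM. In knockout cells, *Rimbp2* was at 15.9, 10.3, 16.01, 13.7 and 13.3 CPM at 2.8 mM and at 32.1, 35.5, 37.5, 23.7 and 41.3 CPM at 16.7 mM. In both genotypes all values at 16.7 mM exceeded those at 2.8 mM. By edgeR, *Rimbp2* changed by 1.00 ± 0.24 (adjusted p 0.00953) in control cells and by 1.30 ± 0.20 (adjusted p 0.000101) in knockout cells. The control estimate was 0.57 with total-count scaling (not called) and 0.14 by limma on log2(TPM + 1) (not called), and the call was lost without replicate 2 of control cells at 2.8 mM (0.0683). For knockout cells, the estimate was 0.81 with total-count scaling (called) and 0.18 by limma on log2(TPM + 1) (not called). CPM of *Pclo* were 58.1, 46.0 and 77.4 in control cells at 2.8 mM and 86.3, 71.7, 96.5 and 90.4 at 16.7 mM. In knockout cells, *Pclo* was at 60.7, 46.99, 74.4, 59.2 and 34.7 CPM at 2.8 mM and at 95.5, 89.1, 114, 117 and 169.7 CPM at 16.7 mM. Piccolo values did not overlap between concentrations in knockout cells and did in control cells, and replicate 5 of knockout cells held both the lowest and the highest value. The edgeR test gave 1.09 ± 0.20 (adjusted p 0.000656) for *Pclo* in knockout cells and 0.51 ± 0.25 (adjusted p 0.179) in control cells, with an interaction of 0.58 ± 0.32 (adjusted p 1). In knockout cells, *Pclo* was at 0.62 with total-count scaling (called) and 0.04 by limma on log2(TPM + 1) (not called).

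*Bsn* was at 2.89, 4.15 and 4.31 CPM in control cells at 2.8 mM and at 8.02, 7.23, 8.21 and 4.32 CPM at 16.7 mM. In knockout cells, *Bsn* was at 2.898, 2.02, 2.85, 2.87 and 2.69 CPM at 2.8 mM and at 3.105, 3.70, 2.80, 3.85 and 5.80 CPM at 16.7 mM. In control cells the lowest value at 16.7 mM barely exceeded the highest at 2.8 mM, and in knockout cells the concentrations overlapped. By edgeR, *Bsn* was called in control cells at 0.87 ± 0.28 (adjusted p 0.0416) and was at 0.53 ± 0.23 (adjusted p 0.0926) in knockout cells, with an interaction of -0.35 ± 0.36 (adjusted p 1). Its control estimate was 0.45 with total-count scaling (not called) and 0.02 by limma on log2(TPM + 1) (not called). That call was also lost with no filter on low counts (0.0956), with an offset for effective length (0.0531), in a fit of only the groups compared (0.0739) and without replicate 1, 2 or 3 of control cells at 2.8 mM (0.181, 0.0986 and 0.063) or replicate 1, 2 or 3 of control cells at 16.7 mM (0.0929, 0.0854 and 0.104). DESeq2 called *Bsn* lower in knockout cells at 16.7 mM (-0.86, adjusted p 0.0141), where edgeR gave -0.85 ± 0.24 (adjusted p 0.0937).

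**Figure D3:**
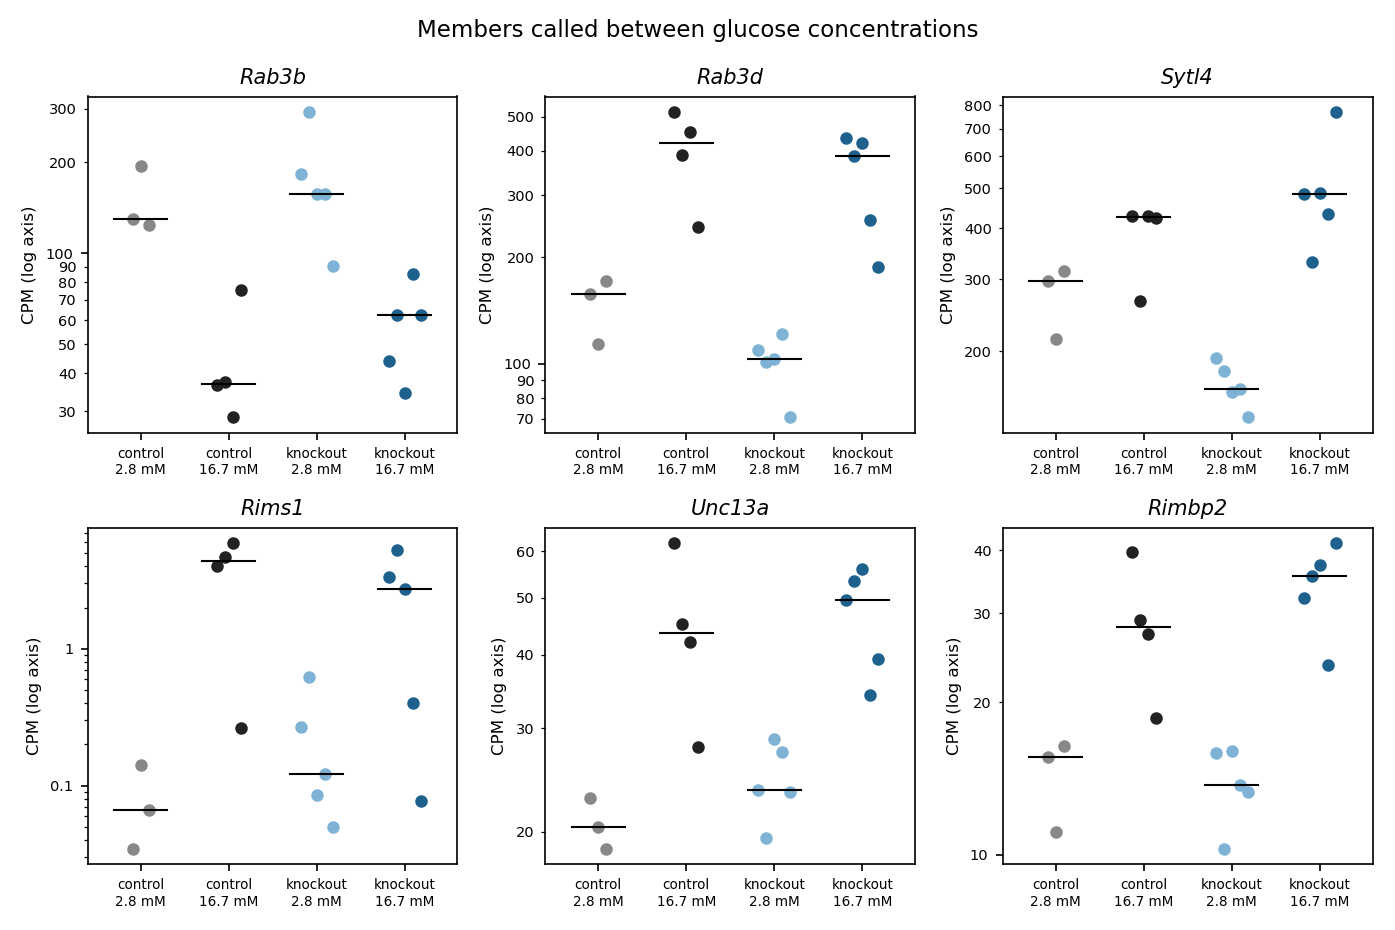
CPM on a log axis of 6 members called between glucose concentrations, with 1 point per sample and a line at each group's median. Rab3b is lower at 16.7 mM and the other 5 are higher with TMM scaling, and for Unc13a in knockout cells the direction flips by limma on log2(TPM + 1).

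Munc13 and CAPS proteins prime docked granules. *Cadps*, the CAPS gene with the higher level, had the highest TPM among them averaged over all samples, with group means of 6.65, 5.24, 7.89 and 5.72, followed by *Unc13b* at 6.34, 5.97, 5.84 and 4.43 and *Unc13a* at 4.14, 4.65, 5.53 and 4.58. The order differed between groups, with *Unc13b* above *Cadps* in control cells at 16.7 mM and *Unc13a* above *Unc13b* in knockout cells at 16.7 mM. Mean TPM were 0.438, 0.426, 0.504 and 0.535 for *Cadps2* and 0.286, 0.373, 0.571 and 0.207 for *Unc13d*. *Unc13a*, the Munc13-1 gene, was at 22.9, 20.4 and 18.7 CPM in control cells at 2.8 mM and at 61.9, 45.2, 42.1 and 27.9 CPM at 16.7 mM. In knockout cells, *Unc13a* was at 23.5, 19.5, 28.7, 27.4 and 23.4 CPM at 2.8 mM and at 49.6, 53.4, 55.9, 34.1 and 39.3 CPM at 16.7 mM. Concentrations did not overlap in either genotype. CPM of *Unc13b*, the Munc13-2 gene, were 33.5, 26.0 and 45.1 in control cells at 2.8 mM and 67.3, 53.0, 72.5 and 42.7 at 16.7 mM. In knockout cells, *Unc13b* was at 29.9, 30.3, 32.3, 31.5 and 19.4 CPM at 2.8 mM and at 47.5, 59.3, 52.6, 38.0 and 38.9 CPM at 16.7 mM. Replicate 4 at 16.7 mM overlapped the range at 2.8 mM in control cells, and in knockout cells there was no overlap. By edgeR, *Unc13a* changed by 1.10 ± 0.23 (adjusted p 0.0043) in control cells and by 0.92 ± 0.18 (adjusted p 0.00103) in knockout cells. By the same test, *Unc13b* changed by 0.76 ± 0.23 (adjusted p 0.0314) and by 0.72 ± 0.19 (adjusted p 0.00682).

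The estimate for *Unc13a* in control cells was 0.67 with total-count scaling (called) and 0.14 by limma on log2(TPM + 1) (not called), and in knockout cells it was 0.42 with total-count scaling (not called) and -0.22 by limma on log2(TPM + 1) (not called). For *Unc13b* it was 0.34 with total-count scaling (not called) and -0.03 by limma on log2(TPM + 1) (not called) in control cells and 0.23 with total-count scaling (not called) and -0.30 by limma on log2(TPM + 1) (not called) in knockout cells. By limma the direction was therefore the opposite for *Unc13b* in both genotypes and for *Unc13a* in knockout cells. The control call of *Unc13b* was also lost in a fit of only the groups compared (0.0641) and, with the adjusted p in parentheses, without replicate 1 or 2 of control cells at 2.8 mM (0.105 and 0.171) or replicate 1 or 3 of control cells at 16.7 mM (0.0764 and 0.0937). *Cadps* was at 19.1, 15.3 and 20.4 CPM in control cells at 2.8 mM and at 24.1, 28.5, 34.9 and 20.1 CPM at 16.7 mM. In knockout cells, *Cadps* was at 24.3, 12.4, 23.6, 20.4 and 17.5 CPM at 2.8 mM and at 29.6, 23.0, 31.9, 24.7 and 35.7 CPM at 16.7 mM. The groups overlapped in both genotypes and *Cadps* was not called, at 0.56 ± 0.23 (adjusted p 0.107) and 0.56 ± 0.19 (adjusted p 0.0301) by edgeR. In control cells, the replicate block gave 0.67 and called it.

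*Cadps2*, the CAPS2 gene, was at 1.24, 1.31 and 2.66 CPM in control cells at 2.8 mM and at 2.50, 1.64, 2.35 and 4.68 CPM at 16.7 mM. In knockout cells, *Cadps2* was at 1.14, 1.37, 2.43, 2.94 and 0.754 CPM at 2.8 mM and at 3.89, 5.73, 3.06, 4.51 and 1.56 CPM at 16.7 mM. The concentrations overlapped in both genotypes. CPM of *Unc13d*, the Munc13-4 gene, a Rab27 effector, were 0.733, 0.707 and 0.406 in control cells at 2.8 mM and 1.01, 0.605, 0.510 and 0.484 at 16.7 mM. In knockout cells, *Unc13d* was at 0.776, 0.454, 0.788, 0.896 and 0.863 CPM at 2.8 mM and at 0.248, 0.589, 0.282, 0.242 and 0.585 CPM at 16.7 mM. Its values were all near or under 1 CPM and overlapped. In knockout cells, edgeR gave 1.12 ± 0.41 (adjusted p 0.0453) for *Cadps2* and -0.96 ± 0.35 (adjusted p 0.0449) for *Unc13d*, both called. The same test gave 0.68 ± 0.50 (adjusted p 0.393) and 0.07 ± 0.41 (adjusted p 0.934) in control cells, and interactions of 0.44 ± 0.63 (adjusted p 1) and -1.03 ± 0.54 (adjusted p 1). The call of *Cadps2* was lost without replicate 1, 2 or 5 of knockout cells at 2.8 mM (0.102, 0.0916 and 0.0992) or replicate 1, 2, 3 or 4 of knockout cells at 16.7 mM (0.0755, 0.126, 0.0564 and 0.0814). For *Cadps2*, the estimate was 0.62 with total-count scaling (not called) and 0.02 by limma on log2(TPM + 1) (not called), and the call was also lost with the insulin genes left out (0.055), with protein-coding transcripts alone (0.0726) and in a fit of only the groups compared (0.0502). *Unc13d* was no longer called without replicate 1, 3, 4 or 5 of knockout cells at 2.8 mM (0.0727, 0.0715, 0.0877 and 0.0767) or replicate 1, 3 or 4 of knockout cells at 16.7 mM (0.11, 0.107 and 0.101). Its estimate was -1.42 with total-count scaling (called) and -0.38 by limma on log2(TPM + 1) (not called), and the call of *Unc13d* was also lost without the 3 samples that stood apart (0.0538), with no filter on low counts (0.105), with an offset for effective length (0.417) and in a fit of only the groups compared (0.0554).

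Complexins clamp and assist the SNARE bundle, and *Doc2b* encodes a calcium sensor of fusion. Mean TPM were 10.9, 5.19, 8.85 and 4.36 for *Cplx2* and 0.0466 ± 0.0340, 0.0157 ± 0.00642, 0.0226 ± 0.00768 and 0.00589 ± 0.00509 (SD) for *Doc2b*. CPM of *Cplx2* were 53.7, 66.7 and 53.6 in control cells at 2.8 mM and 45.9, 55.3, 46.4 and 40.7 at 16.7 mM. In knockout cells, *Cplx2* was at 54.2, 44.4, 38.7, 39.3 and 34.8 CPM at 2.8 mM and at 37.0, 48.7, 31.6, 36.0 and 56.7 CPM at 16.7 mM. Groups overlapped throughout, and neither *Cplx2* nor *Doc2b* was called. *Doc2b* had at most 32 counts in any sample, so that a difference in it was hardly detectable at this depth. *Synpr*, which encodes synaptoporin, a membrane protein of synaptic vesicles, had mean TPM of 44.5, 40.5, 12.2 and 11.1. *Synpr* was at 69.4, 105 and 151 CPM in control cells at 2.8 mM and at 103, 183, 295 and 81.7 CPM at 16.7 mM. In knockout cells, *Synpr* was at 31.1, 41.3, 24.7, 26.4 and 11.1 CPM at 2.8 mM and at 65.2, 72.5, 44.3, 40.5 and 22.5 CPM at 16.7 mM. Every knockout sample was below every control sample at the same concentration, and replicate 5 was the lowest knockout sample at both concentrations. By edgeR, *Synpr* in knockout cells was at -2.01 ± 0.43 (adjusted p 0.0142) at 2.8 mM and at -1.76 ± 0.40 (adjusted p 0.0273) at 16.7 mM. The call at 2.8 mM was made under every other processing tried and lost without replicate 3 of control cells at 2.8 mM (0.113), with the adjusted p in parentheses. At 16.7 mM the call of *Synpr* was lost in a fit of only the groups compared (0.0702) and without replicate 2 or 3 of control cells at 16.7 mM (0.0737 and 0.17) or replicate 3, 4 or 5 of knockout cells at 16.7 mM (0.0736, 0.0625 and 0.0549). Between the concentrations *Synpr* was not called, at 0.61 ± 0.46 (adjusted p 0.413) in control cells and 0.86 ± 0.38 (adjusted p 0.0964) in knockout cells, and in control cells the replicate block gave 0.78 (adjusted p 0.00127), which was called.

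Transcripts were tested in the same way, and 219 transcripts of the members were among the 65504 tested. For glucose in control cells 17 were called (7.76%), 11 higher and 6 lower, against 4.68% of all transcripts (3064 of 65504), and with total-count scaling 16, 6 higher and 10 lower (7.31% against 8.41% of all). In knockout cells 40 were called (18.3%), 33 higher and 7 lower, against 13.8% (9048 of 65504), and with total-count scaling 38, 17 higher and 21 lower (17.4% against 19.9%). At 2.8 mM the knockout comparison called 1 transcript of a member, Rph3a-201 (lost with the replicate block or in 7 of 8 fits without 1 sample, as given above), against 0.504% of all transcripts (330 of 65504). Without replicate 2 of control cells or replicate 2 of knockout cells, this comparison called 1 transcript of a member (0.442% and 0.463%, against 0.406% and 0.446% of all). At 16.7 mM it called 0 by edgeR, against 0.392% (257 of 65504), with 30 at an unadjusted p under 0.05, and for the interaction 0 against 0.00153% (1 of 65504), with 12. The share of all transcripts at that unadjusted cutoff is not given. Among transcripts with a mean of at least 1 CPM, 4 were called for knockout at 2.8 mM (3.67% against 1.26% of all) and 2 at 16.7 mM (1.83% against 1.03%), and for glucose 23 in control cells (21.1% against 14.5%) and 41 in knockout cells (37.6% against 28.2%). With the replicate block these were 0 (against 0.261%) and 1 (0.457% against 0.101%), and for glucose 25 (11.4% against 8.03%) and 41 (18.7% against 13.4%). DESeq2 and limma were not run on transcripts. Leaving out 1 sample changed the count in control cells to 4, 1 and 9 without replicates 1, 2 and 3 at 2.8 mM (1.76%, 0.442% and 4.00%, against 1.41%, 0.659% and 3.19% of all transcripts). Without replicates 1, 2, 3 and 4 at 16.7 mM it was 9, 6, 5 and 24 (4.11%, 2.75%, 2.30% and 11.1%, against 3.17%, 2.19%, 2.16% and 8.27%). For knockout at 16.7 mM, 1 was called without replicate 1 or 2 of control cells (against 0.347% and 0.286% of all) and 2 without replicate 4 (0.922% against 0.655%).

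The members called between knockout and control cells lie on separate chromosomes of the GRCm39 assembly, all on the minus strand: *Rph3a* (ENSMUSG00000029608) on chromosome 5 from 121078558 to 121225015, *Synpr* (ENSMUSG00000056296) on chromosome 14 from 8853423 to 9184986, and *Rab3c* (ENSMUSG00000021700) on chromosome 13 from 110190721 to 110417530. PCBP proteins bind C-rich RNA, so the first 500 bases after the stop codon were searched for CCCNCCC on the sense strand in the most abundant protein-coding transcript of each gene, a search chosen after the data had been seen. Such a window was annotated for 13247 genes, of which 2896 (21.9%) held a match, and for 37 members, of which 13 did. Rph3a-201 held a pair of overlapping matches, Synpr-201 held 0, and *Rab3c* had no window of that length. The first match of *Rph3a* is shown with its letters in capitals, since *Rph3a* had the lowest estimates in knockout cells. This match starts 481 bases after the stop codon, and the whole stretch printed lies at chr5:121079734-121079760 on the minus strand. The overlapping match, CCCACCC, starts on the last capital letter, at 487, and runs on into the lower-case letters.
Rph3a-201: gagggcctgcCCCTCCCccaccctttc
A match is a description of these letters.

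Other genes of granule and vesicle exocytosis, a list of 97 with further SNAREs, Rabs, exocyst subunits and vesicle proteins, were counted too, and 96 were tested. For glucose in control cells 16 of these were called (16.7% against 13.8% of all genes), 9 higher and 7 lower. With total-count scaling 23 were called (24.0% against 21.2%), 3 higher and 20 lower, and by limma on log2(TPM + 1) 47 (49.0% against 30.6%), 2 higher and 45 lower. The replicate block called 32 (33.3% against 22.1%), 16 higher and 16 lower, and DESeq2 17 (17.7% against 17.2%), 10 higher and 7 lower. By limma the estimates of 5 of the 16 had the other sign, and 9 of the 16 were still called. In knockout cells 27 were called (28.1% against 23.8% of all genes), 20 higher and 7 lower. With total-count scaling 41 were called (42.7% against 34.5%), 8 higher and 33 lower, and by limma 55 (57.3% against 38.8%), 2 higher and 53 lower. The block called 28 (29.2% against 25.4%), 20 higher and 8 lower, and DESeq2 29 (30.2% against 25.9%), 21 higher and 8 lower. By limma the estimates of 9 of the 27 had the other sign, and of these *Rab8a* and *Sv2a* were called lower. Between knockout and control cells at 2.8 mM, edgeR called 3 of the 96 (3.12% against 2.04% of all genes), all lower, with log2 fold changes of -1.26 ± 0.27 (adjusted p 0.0153) for *Stx16*, -1.55 ± 0.39 (adjusted p 0.0415) for *Sv2b* and -0.59 ± 0.14 (adjusted p 0.0305) for *Syn1*. *Stx16* was also called with total-count scaling, by limma, with the replicate block and by DESeq2. *Sv2b* was lost with total-count scaling, by limma and with the block (adjusted p 0.0795, 0.14 and 0.055), and *Syn1* with total-count scaling and by limma (adjusted p 0.0944 and 0.234) and, under the fold threshold, with the block (-0.58). The number called at 2.8 mM was 1 with total-count scaling (1.04% against 1.64%, lower) and 2 by limma (2.08% against 1.24%, 1 higher and 1 lower). It was 5 with the block (5.21% against 3.18%, 1 higher and 4 lower) and 6 by DESeq2 (6.25% against 3.67%, 1 higher and 5 lower). At 16.7 mM edgeR called 1 (1.04% against 1.71% of all genes), *Myo5c* at -2.04 ± 0.41 (adjusted p 0.0103), which was lost by limma (adjusted p 0.112). The number called there was 1 with total-count scaling (1.04% against 1.55%, lower) and 1 by limma (1.04% against 0.834%, higher). It was 4 with the block (4.17% against 3.72%, 2 higher and 2 lower) and 2 by DESeq2 (2.08% against 3.17%, both lower). Single samples were not left out for this list. For the interaction edgeR called 0, with 2 at an unadjusted p under 0.05, DESeq2 0, with 2, limma on log2(TPM + 1) 0, with 3, and the replicate block 1 (1.04% against 0.0746% of all genes).

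Markers of islet and other cell types were read in the same samples; their part in the results above was not tested. Sums are of CPM scaled by TMM, and the gene leading a list is the one with the highest mean CPM. The 10 β cell markers, led by *Ins2*, summed to 123200, 119000 and 119300 CPM in control cells at 2.8 mM and to 526100, 451600, 371000 and 272000 CPM at 16.7 mM. In knockout cells they summed to 93270, 71880, 69130, 67330 and 97380 CPM and 475300, 406200, 462800, 359000 and 362200 CPM, and all sums at 16.7 mM were above those at 2.8 mM. The 6 alpha cell markers, led by *Gcg*, summed to 892, 2781 and 1617 CPM and 1305, 1173, 611 and 1700 CPM in control cells and to 1824, 6918, 2292, 9650 and 5572 CPM and 1554, 1887, 1058, 1274 and 1748 CPM in knockout cells, at 2.8 and 16.7 mM in that order. The 5 delta cell markers, led by *Sst*, summed to 383, 251 and 392 CPM and 244, 148, 214 and 336 CPM in control cells and to 497, 481, 831, 1205 and 1320 CPM and 342, 199, 341, 473 and 566 CPM in knockout cells. For the 3 PP cell markers, led by *Ppy*, the sums were 1164, 1113 and 1208 CPM and 517, 492, 369 and 999.6 CPM in control cells, and 1433, 2165, 2353, 3672 and 7427 CPM and 578, 731, 471, 1296 and 1457 CPM in knockout cells. At 2.8 mM the delta and PP sums were higher in every knockout sample than in any control sample, and the alpha sums overlapped, while *Rph3a*, *Rab3c* and *Synpr* were lower there. None of the alpha, delta or PP markers was called between the genotypes at either concentration.

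The 6 proliferation genes, led by *Top2a*, summed to 5.92, 4.13 and 3.99 CPM and 62.2, 39.0, 9.66 and 8.19 CPM in control cells and to 7.69, 4.59, 6.002, 12.8 and 4.07 CPM and 228, 129.5, 271, 49.4 and 2.19 CPM in knockout cells, at 2.8 and 16.7 mM. The lowest proliferation sums of each genotype at 16.7 mM were in replicate 4 of control cells and replicates 4 and 5 of knockout cells, where *Rims1* was also low. Replicate 3 of control cells had a sum of 9.66 and the highest *Rims1* of all samples. A link between these sums and *Rims1* was not tested. Of 8 neural and Schwann cell, 6 endothelial, 6 stellate and 10 acinar markers, 5, 4, 5 and 1 were tested.

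In calls with TMM, glucose in control cells gave 6 of 10 β cell, 1 of 6 alpha and 1 of 6 ductal markers higher, and 1 of 5 delta, 1 of 7 macrophage and 1 of 5 neural markers lower. The alpha marker *Ttr* was at 53.4, 57.7 and 42.9 CPM at 2.8 mM and 949, 754, 242 and 109 CPM at 16.7 mM there. *Gcg* values overlapped between the concentrations in control cells. Glucose in knockout cells gave higher levels of 8 β cell, 1 alpha, 1 endothelial, 1 macrophage, 2 neural and all 6 proliferation genes. In the same comparison 2 alpha, 2 delta, 6 macrophage, 1 neural and 3 PP markers were lower. With total-count scaling, glucose in control cells gave 4 β cell markers higher and 1 lower, and of the others called 1 alpha and 1 ductal were higher and the rest lower. In knockout cells that scaling gave 7 β cell markers higher and 1 lower, and of the others called 6 proliferation genes, 1 alpha, 1 macrophage and 1 neural were higher and the rest lower. By limma on log2(TPM + 1), glucose gave 2 β cell markers higher and 2 lower in control cells, and 3 higher and 2 lower in knockout cells. The others called by limma were lower, save 1 alpha marker in control cells and 6 proliferation genes in knockout cells. Between the genotypes, 2 β cell, 1 ductal and 1 macrophage markers were lower in knockout cells at 2.8 mM and 1 ductal marker at 16.7 mM, and for the interaction 1 β cell marker was called higher. At 2.8 mM the ductal marker *Cftr* was at 5.84, 2.59 and 10.3 CPM in control cells and at or below 0.141 CPM in knockout cells. *Krt7*, which leads the ductal list, overlapped between the genotypes there. The macrophage marker *C1qa* was at 85.7, 66.5 and 92.5 CPM in control cells and 21.8, 18.2, 16.4, 16.6 and 12.7 CPM in knockout cells. The other macrophage markers overlapped there. With TMM no acinar or stellate marker was called.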

How the data were processed

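Polyadenylated RNA was sequenced from sorted β cells in 17 samples of 4 groups. By the submitters' processing notes, reads were assigned to mm39 transcripts with kallisto and tested with edgeR, with no versions given. Estimated counts (expected counts) per transcript were made by the authors with kallisto from read pairs and deposited without normalisation between samples. The same deposited files hold TPM, which the authors' kallisto run scaled per effective length and to the total of each sample.

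Estimated counts were summed per gene and rounded. They totalled 47385513 to 82419400 per sample, and TMM factors ran from 0.752 to 1.288. With R 4.3.3, edgeR 4.0.16 fitted 4 group means after filterByExpr, and the quasi-likelihood F test (prior count 2) gave p-values adjusted by Benjamini-Hochberg over all genes, or all transcripts, tested. Calls required that the adjusted p be under 0.05 and that the fold exceed 1.5. The 5 comparisons were 16.7 against 2.8 mM in each genotype, knockout against control at each concentration, and their interaction. Tests were checked on simulated data. The batch factor of the authors' design has no levels in the sources used, so it was left out.

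Alternatives were RLE size factors, total counts, insulin genes left out, no filter on low counts, an offset for effective length, protein-coding transcripts alone, a replicate block, only the groups compared, each sample left out in turn, the 3 samples apart on the first principal component left out, DESeq2 1.42.0, and limma 3.58.1 with trend on log2(TPM + 1). For transcripts, total counts, a mean of at least 1 CPM, the block and leaving out each sample were tried. The block followed from a pairing check of residuals for the same replicate number. Between control samples at the 2 concentrations, the lowest correlation was 0.123, above the limit of 0.1. Between knockout samples at the 2 concentrations, the correlations were 0.0664, 0.171, 0.105, 0.07465 and 0.193 for replicates 1 to 5. The lowest was under the limit, but all were above the highest for different numbers, 0.0445. Pairing by number is therefore not confined to control cells by this check, and the main fit had no block.

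TPM are given for all 44 members. Values per sample are given for members called in at least 1 comparison and for the member with the highest mean TPM in each role. The members, the list of other exocytosis genes and the marker lists were chosen with earlier results of these data known.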

Additional observations from a re-analysis of the deposited data

Results flagged for a closer look

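In each group of 4 or 5 samples, the CPM of the 43 tested members were searched for a sample far from the others of its group, that is, one whose distance to its nearest neighbour took up most of the range of the group. Of 129 groups looked at, 7 held such a sample, and chance gives about 1 in 20 groups, so 7 is about the number that chance gives. *Stxbp2* was high in replicate 1 of control cells at 16.7 mM, at 134 CPM against 101 to 106 in the other 3 samples. *Rab27a* was low in replicate 4 of that group, at 78.7 CPM against 91.0 to 93.4. *Sytl4* was low in replicate 2 of that group, at 265 CPM against 423 to 428. In knockout cells at 2.8 mM, *Rph3a* was high in replicate 3, at 0.151 CPM against 0.0471 to 0.0761 in the other 4 samples, values that rest on few counts. In the same group *Unc13b* was low in replicate 5, at 19.4 CPM against 29.9 to 32.3. Replicate 2 of that group was low in *Unc13d*, at 0.454 CPM against 0.776 to 0.896, and in *Bsn*, at 2.02 CPM against 2.69 to 2.898.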

How the results depend on the processing

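The balance of directions changed with the scaling. A count of calls was taken as turned when the majority of its calls lay in the other direction and the share of higher calls moved by more than 10 percentage points. Total-count scaling gave 11 members called for glucose in control cells (3 higher, 8 lower, median -0.14) and 13 in knockout cells (5 higher, 8 lower, median -0.13). By limma on log2(TPM + 1) these were 17 (1 higher, 16 lower, median -0.34) and 19 (1 higher, 18 lower, median -0.48). With total counts 0 of the 13 and 0 of the 17 members called with TMM changed sign, and by limma 4 and 6 did. Over all genes, total-count scaling called 4837 and 7851, and limma 6975 and 8831, mostly lower, with median shifts of -0.35 and -0.47 and of -0.24 and -0.33. By construction, both scale to totals that hold the insulin transcripts, and limma also changes the unit and the test. Among transcripts of members, total-count scaling called 16 (6 higher, 10 lower) and 38 (17 higher, 21 lower).

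By limma, single members turned for glucose in control cells: *Rab3a* (-0.18), *Sytl5* (-0.0076), *Unc13b* (-0.034) and *Exph5* (-0.02). In knockout cells *Vamp2* (-0.39), *Rab27a* (-0.48), *Sytl5* (-0.060), *Unc13a* (-0.22), *Unc13b* (-0.30) and *Exph5* (-0.11) turned. The members' interaction median turned to -0.10 by limma. *Napb* in knockout cells turned to 1.10 with protein-coding transcripts alone, which leave out Napb-202.

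Only the groups compared gave 8 members (18.6% against 12.7% of all genes) for glucose in control cells and 1 (2.38% against 1.22%) for knockout at 16.7 mM, where DESeq2 called 5 and limma 1. The members' median was 0.26 for glucose in knockout cells without the 3 samples apart on the first principal component. At 2.8 mM the median for knockout was -0.087 with total counts and -0.0045 by limma. All genes called for glucose in control cells were 4898 without those 3 samples. For knockout at 2.8 mM, DESeq2 called 835 genes and limma 283. At 16.7 mM, 587 genes were called without those 3 samples, 238 with only the groups compared, 721 by DESeq2 and 190 by limma. For the interaction, 0 genes were called by edgeR with the insulin genes left out, 15 with no filter on low counts, 2 without those 3 samples, 32 by DESeq2 and 0 by limma. The 1 gene called with all genes kept was a β cell marker, from a list that holds *Ins1* and *Ins2*. With a mean of at least 1 CPM, 4 transcripts of members were called for knockout at 2.8 mM (3.67% against 1.26% of all) and 2 at 16.7 mM (1.83% against 1.03%), and with total counts 1 at 16.7 mM (0.457% against 0.357%). Unless stated, the cause was not tested.

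With the replicate block, all genes called were 5024 for glucose in control cells, 725 and 848 for knockout at 2.8 and 16.7 mM, and 17 for the interaction. Member transcripts called for knockout with this block were 0 and 1, against 171 and 66 of all 65504. The numbers may pair samples, and what they stand for is not in the labels.

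Leaving out each sample in turn gave 5 to 16 members called for glucose in control cells (medians 0.19 to 0.31) and 13 to 17 in knockout cells (0.28 to 0.40). For knockout it gave 1 to 3 at 2.8 mM (-0.23 to -0.17), 1 to 4 at 16.7 mM (-0.16 to -0.08), and for the interaction 0 to 0 (0.02 to 0.09). All genes called ran from 1382 (without replicate 2 of control cells at 2.8 mM; 1990 without replicate 1 there) to 4480 for glucose in control cells and from 4640 to 5742 in knockout cells. They ran from 242 (without replicate 3 of control cells) to 492 for knockout at 2.8 mM. At 16.7 mM they ran from 213 (without replicate 3 of control cells) to 652 (without replicate 4 of control cells). For the interaction they ran from 0 (without replicate 3 of control cells at 2.8 mM) to 2 (without replicate 2 of either genotype at 2.8 mM or replicate 5 of knockout cells at 16.7 mM). Member transcripts called ran from 1 to 24 and 30 to 42 for glucose, 0 to 1 and 0 to 2 for knockout, and 0 to 0 for the interaction. All transcripts called ran from 459 to 5379 and 6927 to 9294 for glucose, 138 to 289 and 136 to 426 for knockout, and 0 to 3 for the interaction.

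Of 35 calls of members, 16 were made without each sample in turn, 10 under every other alternative, and 4 under all. For single members and medians of all genes, 625 values kept direction and side of the threshold or stayed within 1 SD between samples, 117 kept direction and lost the call, 40 medians of all genes moved by more than 1 SD, and 11 values turned. For counts and medians, 305 values kept direction and stayed within 1.5 times (medians within 1 SD), 34 fell, 24 rose, 3 medians moved and 15 turned.

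With 47385513 to 82419400 counts per sample, *Cplx1*, *Doc2b*, *Unc13d*, *Rab27b*, *Rph3a* in knockout cells and *Rims1* at 2.8 mM rest on few counts, and small differences in them were not detectable at this depth. With 3 to 5 samples a group, single samples decide many calls.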
